A study of Mus musculus with 6 samples.

Results

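Of the 37 Hox genes measured in the small intestinal epithelium of E18.5 mouse embryos, 1 was higher and 1 was lower on the arrays labelled Gata4Gata6 double conditional knockout (cKO) than on the control arrays, and the 95% interval of every one of the 37 changes lay inside a 2-fold change in either direction. The members are all genes whose symbol is Hox, a cluster letter from a to d and a number, taken from 19938 genes that have a probe set annotated to them alone. Each of the 37 genes has 1 probe set, with 10 genes in the Hoxa cluster on chromosome 6, 9 in Hoxb on chromosome 11, 9 in Hoxc on chromosome 15 and 9 in Hoxd on chromosome 2.

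Hox genes encode homeodomain transcription factors that give cells along the head-to-tail axis their positional identity. They lie in clusters in the order of their paralog numbers, with low numbers active toward the head and high numbers toward the tail, and genes of the same number in different clusters are close relatives called paralogs. In the gut they pattern the mesoderm and the endoderm, and group 13 genes are known for the hindgut and rectum. GATA4 and GATA6 bind GATA motifs in the DNA of gut endoderm cells, and the series asks what the embryonic epithelium expresses with and without them.

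The comparison has 3 arrays labelled Gata4Gata6 cKO and 3 arrays labelled control, each with total RNA of epithelial cells isolated at E18.5, shortly before birth. The labels name neither the Cre driver, nor the deleted exons, the strain or the control genotype. They do not say whether each array stands for its own animal, so a p-value reflects the spread among these arrays alone, and that spread may be technical. Levels are deposited log2 values, and a change is the mean of the cKO arrays minus the mean of the control arrays, printed ± its SE (n = 3 arrays a group). The adjusted p is that of limma with Benjamini-Hochberg adjustment over all 19938 genes, with a threshold of 0.05.

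Both targeted genes, Gata4 and Gata6, had higher levels under the cKO label than under the control label. Gata4 stood at 11.34, 11.39 and 11.51 on the arrays labelled cKO, against 10.95, 10.93 and 10.96 on the control arrays. Gata6 stood at 12.72, 12.69 and 12.72 on the arrays labelled cKO, against 12.23, 12.28 and 12.27 on the control arrays. The changes were 0.47 ± 0.07 for Gata4 (adjusted p = 0.0101) and 0.45 ± 0.06 for Gata6 (adjusted p = 0.0067), and without both control 3 and cKO 2 they were 0.485 (adjusted p = 0.0646) and 0.465 (adjusted p = 0.0503). Both genes were higher on every array labelled cKO than on any control array. The deleted part of each gene is unknown here, so these levels cannot decide whether the labels are right. The labels are the sole basis for every direction that follows. The epithelial marker gene Epcam lay between 12.39 and 12.55 on the cKO arrays and between 12.12 and 12.19 on the control arrays. Arrays cKO 2 and control 3 stood apart in their liver cell transcripts: the log2 of the summed level of 9 hepatocyte markers was 13.48, 16.31 and 13.49 on cKO arrays 1, 2 and 3, against 13.98, 12.87 and 15.13 on control arrays 1, 2 and 3. Control 1 also held liver transcripts: Alb stood at 12.04 there, at 13.66 on cKO 2 and at 13.19 on control 3. On the remaining arrays Alb ran from 6.56 to 7.09. The fit without both control 3 and cKO 2 therefore keeps 1 array with liver transcripts. Where the call of a gene named for its change was lost without this pair of arrays, the value without it is given.

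Across the family the level of transcript differed little between the groups. The median change of the 37 genes was −0.06, beside −0.01 for all genes, and the median size of a change was 0.14, beside 0.15 for all genes. A change of 2-fold or more was reached by 0 of the 37 Hox genes and by 4.30% of all genes. The calls were 2 of 37 (5.41%), against a background of 12.9% of all genes called, with 5.52% of all genes higher and 7.42% lower. The arrays of the groups did not overlap for 12 Hox genes (32.4%), which is close to the 32.6% of all genes, 6 of them with all cKO arrays above the controls (14.3% of all genes) and 6 with all cKO arrays below them (18.3% of all genes). An unadjusted p under 0.05 was found for 8 Hox genes (21.6%), beside 26.6% of all genes.

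Most Hox probe sets had low deposited levels, a range in which arrays are known to compress differences. The mean level was below that of the median gene for 35 of the 37, and in the lowest tertile for 19. Among all genes below the median level 6.31% were called, and the 2 calls among the 35 dim Hox genes make 5.71%. The 37 genes ranged from 6.04 (Hoxd10 on cKO 2) to 9.17 (Hoxa4 on cKO 2), and no Hox value was listed at 0. Detection calls were not used here, so it cannot be said which of these genes were above background.

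**Figure D1:**
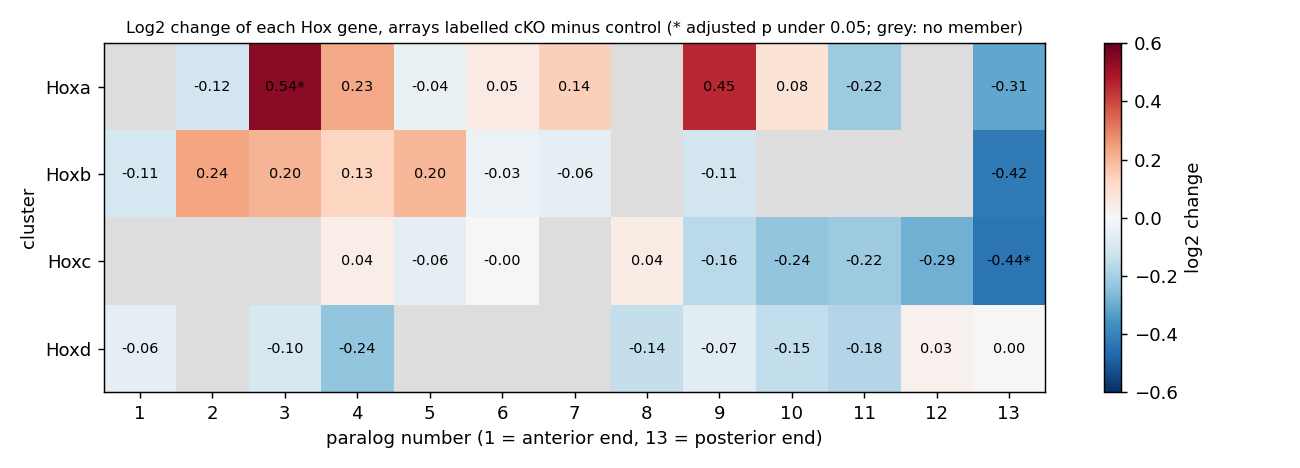
Log2 change (arrays labelled cKO minus control) of each Hox gene, with the cluster in rows and the paralog number in columns; colour and printed value both give the change, asterisks mark adjusted p under 0.05 and grey fields hold no member. The positive changes lie mainly in Hoxa and Hoxb at numbers 2 to 10, and the Hoxc genes from 9 to 13 are all below 0.

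Hoxa3, which in mice is needed for the thymus, the parathyroid and other derivatives of the pharynx, was the member that rose. Its level was 7.14, 7.39 and 7.35 on the cKO arrays, against 6.85, 6.70 and 6.70 on the control arrays. The lowest cKO array was above the highest control array. The change was 0.54 ± 0.10, or 1.46-fold (95% interval 0.31 to 0.77, adjusted p = 0.0144). It missed the threshold when control 2, control 3 or cKO 3 was left out (adjusted p up to 0.0635), and without both control 3 and cKO 2 the change was 0.47 (adjusted p = 0.0995). In RefSeq the span of Hoxa3 covers Hoxa4, Hoxa5 and Hoxa6, so transcripts that run through the region cannot be told apart from those of a single gene.

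Hoxc13, which in mice is required for hair and nail, was the member that fell. Its level was 7.07, 6.95 and 7.10 on the cKO arrays, against 7.55, 7.33 and 7.55 on the control arrays. All cKO arrays lay below all control arrays. The change was −0.44 ± 0.09, or 1.35-fold lower (95% interval −0.66 to −0.21, adjusted p = 0.0281). The call was lost on leaving out any array except control 2 (adjusted p up to 0.0991), and without both control 3 and cKO 2 the change was −0.355 (adjusted p = 0.163).

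The next members by adjusted p did not pass the threshold. Hoxb13, a gene of the tail end of the body that is also known from the distal colon and the prostate, stood at 6.70, 6.42 and 6.38 on the cKO arrays, against 7.03, 6.89 and 6.85 on the control arrays. The groups did not overlap, and the change of −0.42 ± 0.11 missed the threshold (adjusted p = 0.0548). It passed without cKO 1, at −0.52 (adjusted p = 0.0254). Among the fits with 1 array left out, the weakest change of Hoxb13 was −0.36 and its adjusted p ran up to 0.158. Hoxa4, the anterior neighbour of Hoxa5 in the cluster, stood at 9.13, 9.17 and 9.09 on the cKO arrays, against 8.84, 8.92 and 8.95 on the control arrays. All cKO arrays were higher, by 0.23 ± 0.07 (adjusted p = 0.0929). Hoxa9, known for its part in blood cell progenitors, stood at 7.30, 7.05 and 7.57 on the cKO arrays, against 6.69, 6.99 and 6.88 on the control arrays. Here cKO 2 lay just above control 2, and the change was 0.45 ± 0.15 (adjusted p = 0.111). Without cKO 2, the array with the highest liver transcripts, Hoxa9 changed by 0.58 (adjusted p = 0.0418). Among the fits with 1 array left out, its weakest change was 0.32 and its adjusted p ran up to 0.259.

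The posterior Hoxc genes next to Hoxc13 on the chromosome had changes below 0 that did not pass. Hoxc12 stood at 6.88, 6.69 and 6.78 on the cKO arrays, against 6.93, 7.15 and 7.14 on the control arrays, a change of −0.29 ± 0.09 (adjusted p = 0.107). Hoxc11 stood at 6.75, 6.79 and 6.98 on the cKO arrays, against 6.99, 7.10 and 7.09 on the control arrays, a change of −0.22 ± 0.09 (adjusted p = 0.176). In Hoxc10, known from the lumbar spinal cord and hindlimb, the cKO arrays stood at 6.47, 6.47 and 6.57, against 6.66, 6.75 and 6.81 on the control arrays, a change of −0.24 ± 0.08 (adjusted p = 0.103). In each of these 3 genes all cKO arrays were below all control arrays, although for Hoxc11 the gap between cKO 3 and control 1 was the last digit of the deposited values. Hoxc9 overlapped between the groups (−0.16 ± 0.16), as did Hoxc8 (0.04), Hoxc6 (−0.0033), Hoxc5 (−0.06) and Hoxc4 (0.04).

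**Figure D2:**
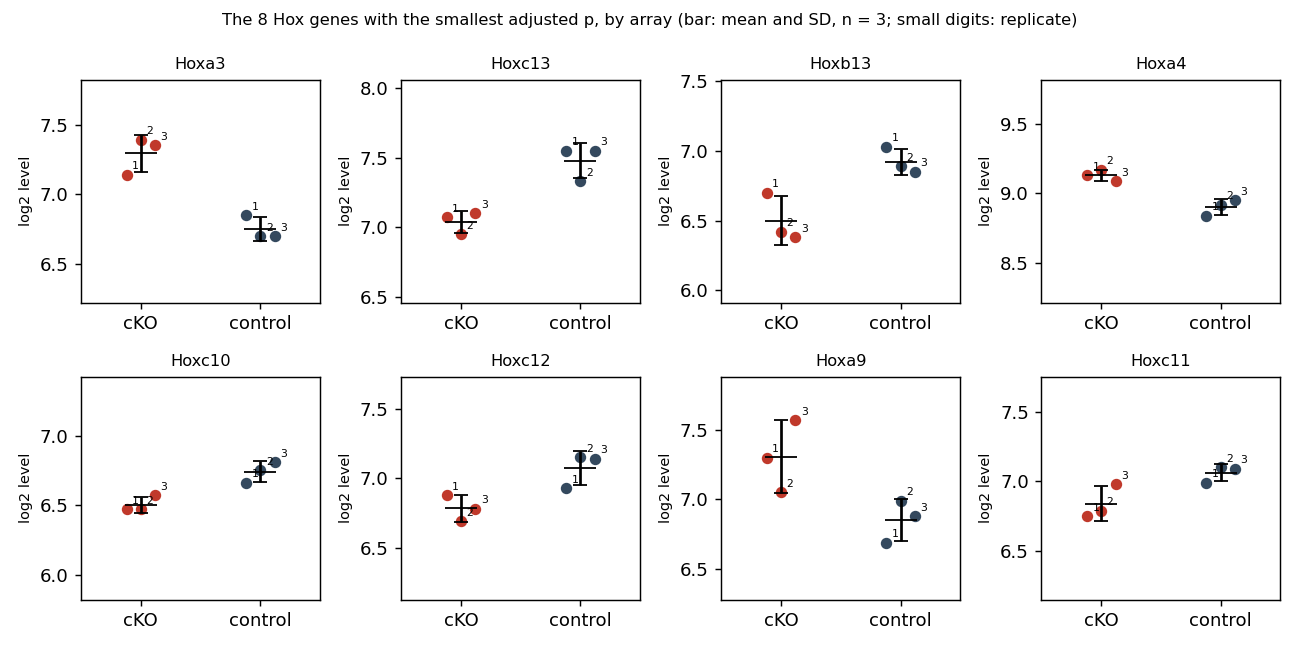
Deposited log2 level on each array for the 8 Hox genes with the smallest adjusted p, arrays labelled cKO on the left and control on the right of each panel; bars give mean and SD (n = 3), small digits the replicate, and all panels span the same height. In all 8 genes the groups are apart, with Hoxa3, Hoxa4 and Hoxa9 higher and the other 5 lower on the cKO arrays. The choice by adjusted p favours groups that are apart, as were 32.6% of all genes. Only Hoxa3 and Hoxc13 passed the threshold.

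Grouped by cluster, the changes above 0 were 6 of 10 in Hoxa, 4 of 9 in Hoxb, 2 of 9 in Hoxc and 1 of 9 in Hoxd. The cluster medians were 0.07 for Hoxa, −0.03 for Hoxb, −0.16 for Hoxc and −0.10 for Hoxd. Over all genes the groups did not overlap for 32.6%, with 14.3% higher and 18.3% lower on every cKO array. Hox genes whose groups did not overlap numbered 3 in Hoxa, all higher, 4 in Hoxb, of which 3 were higher, 4 in Hoxc, all lower, and 1 in Hoxd, lower. Beyond the genes given above these were Hoxb2 (0.24 ± 0.11), a hindbrain gene, Hoxb3 (0.20 ± 0.09), Hoxb4 (0.13 ± 0.07), which is known from blood stem cells, and Hoxd8 (−0.14 ± 0.07), with adjusted p between 0.229 and 0.294. In RefSeq the spans of Hoxb3 and Hoxb4 overlap, as do those of Hoxd3 and Hoxd4 and those of Hoxd10 and Hoxd11. Each gene has its own probe set, but transcripts that run through such a region cannot be told apart from those of a single gene. No test of a difference between clusters was made.

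Grouped by paralog number, with numbers 1 to 3 called anterior, 4 to 8 central and 9 to 13 posterior, the median change was −0.06 for the 7 anterior genes, 0.02 for the 14 central genes and −0.17 for the 16 posterior genes. Changes were below 0 for 4 of 7 anterior, 7 of 14 central and 12 of 16 posterior genes. The highest group medians were those of numbers 3 (0.20, 3 genes) and 4 (0.085, 4 genes), and the lowest was that of number 13 (−0.37, 4 genes). Over the 37 genes the change and the paralog number correlated at Spearman's rho = −0.51 and Pearson's r = −0.50, which describes these 6 arrays, since all 37 points share them and clustered genes are not independent. The coefficient rho lay between −0.51 and −0.44 with 1 array left out. With the lowest tertile of genes removed it was −0.24 over 18 Hox genes. Low levels move with this order, since 12 of 16 posterior, 5 of 14 central and 2 of 7 anterior genes were in the lowest tertile, and their part in the pattern was not tested.

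Paralogs of the same number did not all share a direction. In group 13, Hoxa13, which patterns hindgut and digits, changed by −0.31 ± 0.16 with overlapping arrays (adjusted p = 0.264). Hoxd13, its partner in digits and hindgut, changed by 0.00 ± 0.13 (95% half-width 0.31). In group 3, beside the rise of Hoxa3, Hoxb3 changed by 0.20 and Hoxd3 by −0.10 ± 0.08. In group 9, beside the 0.45 of Hoxa9, Hoxb9 changed by −0.11, Hoxc9 by −0.16 and Hoxd9 by −0.07. In group 11, all 3 members were below 0: Hoxa11, a gene of forearm and kidney development, by −0.22, Hoxc11 by −0.22 and Hoxd11 by −0.18.

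The remaining members overlapped between the groups. In Hoxa these were Hoxa2, the selector gene of the second pharyngeal arch (−0.12), Hoxa5, which in mice is needed for lung and gut maturation (−0.04 ± 0.10), Hoxa6 (0.05), Hoxa7 (0.14) and Hoxa10, known from the uterus (0.08). In Hoxb they were Hoxb1, which sets the identity of a hindbrain segment (−0.11), Hoxb5, which acts in enteric nerve precursors (0.20 ± 0.12), Hoxb6 (−0.03) and Hoxb7 (−0.06). In Hoxd they were Hoxd1, which acts in pain-sensing neurons in mice (−0.06), Hoxd4 (−0.24 ± 0.24), Hoxd10 (−0.15) and Hoxd12 (0.03). The widest interval was that of Hoxd4, with a half-width of 0.58, and the narrowest that of Hoxb4, at 0.17. For 26 of the 37 genes the interval lay within 0.5 on the log2 scale of no change.

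**Figure D3:**
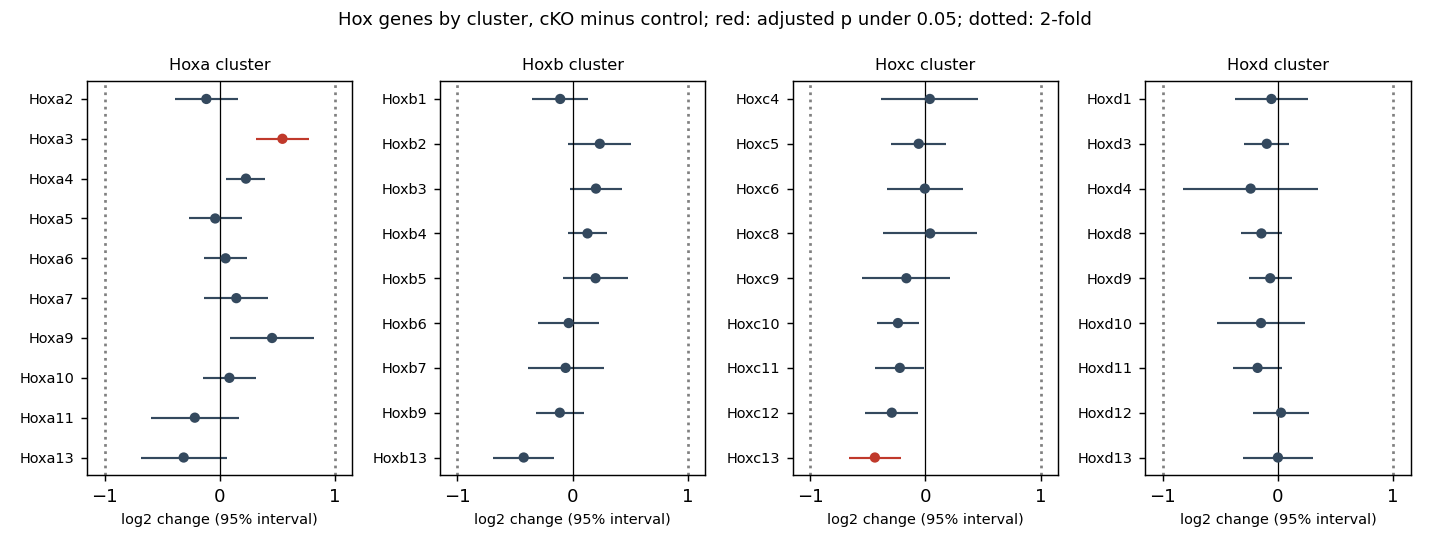
Log2 change (arrays labelled cKO minus control) with 95% interval from limma for each Hox gene, by cluster and in order of paralog number from top to bottom; dotted lines mark a 2-fold change and red marks adjusted p under 0.05. All 37 intervals lie between the dotted lines, with Hoxd4 the widest.

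Several microRNA genes lie inside the clusters, and the miR-196 and miR-10 families are known to act on some Hox transcripts. The mature sequences of these families, from RefSeq on GRCm38.p6 with the seed (bases 2 to 8, through which a target is recognised) in capitals, are shown because they fall into 2 seed families that each span more than 1 cluster.
miR-196a-5p: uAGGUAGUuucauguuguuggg
miR-196b-5p: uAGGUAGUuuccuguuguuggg
miR-10a-5p: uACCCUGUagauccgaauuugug
miR-10b-5p: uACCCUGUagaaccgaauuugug
Counted from the 5′ end, miR-196a-5p and miR-196b-5p differ by A12C and miR-10a-5p and miR-10b-5p by U12A, both outside the seed.

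The same miR-196a-5p comes from a hairpin in Hoxb and a hairpin in Hoxc. Their hairpins, with the mature 5p strand in capitals, differ outside it, and each has its own probe set.
Mir196a-1 (chr11:96265164-96265265, plus strand): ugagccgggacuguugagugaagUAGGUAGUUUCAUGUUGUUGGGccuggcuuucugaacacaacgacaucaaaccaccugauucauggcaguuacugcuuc
Mir196a-2 (chr15:102973350-102973434, plus strand): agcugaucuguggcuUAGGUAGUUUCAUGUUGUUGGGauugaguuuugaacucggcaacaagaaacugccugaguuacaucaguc
The Mir196a-2 probe set stood at 6.31, 6.22 and 6.29 on the cKO arrays, against 6.79, 6.93 and 6.63 on the control arrays. It was lower on every cKO array, by −0.51 ± 0.10 on the log2 scale (adjusted p = 0.0178), and it lies between Hoxc10 and Hoxc9, at the edge of the Hoxc genes that were lower without overlap. The call was kept in 3 of 6 fits with 1 array left out (adjusted p up to 0.0617) and without both control 3 and cKO 2 (−0.56, adjusted p = 0.0386). Mir196a-1, which lies between Hoxb13 and Hoxb9, stood at 6.74, 6.78 and 6.76 on the cKO arrays, against 6.66, 6.51 and 6.48 on the control arrays, a change of 0.21 ± 0.08 (adjusted p = 0.143). Mir196b, between Hoxa9 and Hoxa10, changed by −0.24 ± 0.13, Mir10a by −0.0033 ± 0.11 and Mir10b by 0.07 ± 0.24, none past the threshold. Mir615, which lies beside Hoxc5 and belongs to neither family, had a change of 0.06 ± 0.13, with an adjusted p = 0.817. These 5 miRNA genes other than Mir196a-2 were named after their values were seen. The mean levels of Mir196a-2, Mir196a-1, Mir10a and Mir10b were in the lowest tertile of all genes (under 7.495). Without detection calls it cannot be said whether these probe sets were above background. The arrays measured total RNA at the hairpin, so the amounts of mature miRNA were not measured.

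Of 22 measured genes inside or beside the clusters, 2 passed as higher and 2 as lower on the probe sets used, with a median of −0.0017. Over all genes 5.52% were higher and 7.42% lower. The lower pair was Mir196a-2 and Calcoco2, of which Calcoco2 has another probe set that disagrees. The largest change among them was that of Ttll6, a tubulin polyglutamylase gene that lies next to Hoxb13 on its outer side. Ttll6 stood at 8.23, 9.01 and 9.25 on the cKO arrays, against 6.59, 6.29 and 6.39 on the control arrays, a change of 2.41 ± 0.26 (5.30-fold, adjusted p = 0.00237). It was higher on every cKO array and kept its call in all 6 fits with 1 array left out, while its neighbour Hoxb13 had a change of −0.42. Calcoco2, an autophagy receptor gene on the far side of Ttll6, changed by −0.87 ± 0.14 (adjusted p = 0.00911) on the probe set used, but by 0.10 on its other probe set, which stood at 6.15, 5.89 and 5.85 on the cKO arrays, against 5.62, 6.15 and 5.82 on the control arrays. These probe sets disagree and where each of them maps was not checked, so no direction is given for Calcoco2. Without both control 3 and cKO 2 the Calcoco2 call was lost (−0.765, adjusted p = 0.0665). Cbx5, a heterochromatin protein gene beyond Hoxc4, was higher by 0.36 ± 0.08 (adjusted p = 0.027), a call kept in 1 of 6 fits with 1 array left out and lost without both control 3 and cKO 2 (0.30, adjusted p = 0.162). Evx1 and Evx2, homeobox genes at the posterior ends of Hoxa and Hoxd and named after their values were seen, changed by −0.16 and −0.06 and did not pass.

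The partners of HOX proteins and the regulators of the clusters were counted beside the 12.9% of all genes called. TALE homeodomain proteins bind DNA together with HOX proteins, and of 8 measured 1 was higher and 0 were lower (median 0.14). Meis1 stood at 7.67, 7.99 and 7.56 on the cKO arrays, against 7.18, 6.98 and 6.71 on the control arrays, a rise of 0.78 ± 0.16 (adjusted p = 0.0247), which passed in 3 of 6 fits with 1 array left out and was 0.535 without both control 3 and cKO 2 (adjusted p = 0.0632). Its relatives Meis3 (0.38 ± 0.10, adjusted p = 0.062), Pbx3 (0.22 ± 0.09) and Meis2 (0.43 ± 0.27) did not pass. Of 28 Polycomb genes, which keep Hox genes silent where they are not used, 1 was higher and 0 were lower (median −0.01). That gene was Phf19, at 0.44 ± 0.11 (adjusted p = 0.0456), a call kept in 1 of 6 fits with 1 array left out and lost without both control 3 and cKO 2 (0.455, adjusted p = 0.0876). Of 15 Trithorax group and demethylase genes, which keep Hox genes active, 0 were called by limma and 2 had an unadjusted p under 0.05. Kmt2a, the best known of them, changed by 0.56 ± 0.14 (adjusted p = 0.051).

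Retinoic acid induces anterior Hox genes in embryos, and 1 of its 17 measured pathway genes was higher and 1 lower. Among all genes 5.52% were higher and 7.42% lower. Rarg, a retinoic acid receptor gene, stood at 8.87, 8.81 and 8.94 on the cKO arrays, against 8.13, 8.29 and 8.10 on the control arrays. All cKO arrays were higher, by 0.70 ± 0.08 (1.62-fold, adjusted p = 0.0035), and the call was kept with any 1 array left out. Aldh1a1, which makes retinoic acid, fell by 0.85 ± 0.19 (adjusted p = 0.032), a call kept in 1 of 6 such fits and lost without both control 3 and cKO 2 (−0.58, adjusted p = 0.103). The caudal and ParaHox genes are homeobox relatives that regulate Hox genes or pattern the gut, and of 6 measured 0 were called by limma and 0 had an unadjusted p under 0.05. Cdx2, the main intestinal caudal gene, changed by 0.11 ± 0.10, Cdx1 by 0.11 ± 0.09, and Pdx1, a gene of duodenum and pancreas, by 0.20 ± 0.17.

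Markers of gut regions, which differ along the same axis, were counted beside the Hox genes. The background was 5.52% of all genes higher and 7.42% lower. Of 9 ileal markers 7 were higher and 0 lower (median 1.87), and of 10 proximal markers 7 were lower and 1 higher (median −1.57), that 1 being Gata4. Of 8 colon and rectum markers 2 were higher and 1 lower (median 0.23), and of 12 stomach markers 1 was higher and 0 lower (median 0.01). Among the colon genes Car1, a carbonic anhydrase, and Muc2, the main gut mucin, rose by 3.44 and 1.25, and Slc26a3, a chloride exchanger, fell by 0.96.

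Hox genes are also active in the mesenchyme and muscle of the gut wall, and in bulk RNA fewer cells of a type and less RNA per cell cannot be told apart. Of 18 gut mesenchyme markers 0 were higher and 1 was lower (median 0.18), beside 5.52% of all genes higher and 7.42% lower. The log2 of the summed level of these markers ran from 12.8 to 14.3 on the cKO arrays and from 12.7 to 13.1 on the control arrays. The 1 lower gene was Prrx1, a limb and mesenchyme homeobox gene, at 7.66, 7.05 and 7.64 on the cKO arrays, against 9.66, 9.84 and 9.73 on the control arrays, a change of −2.29 ± 0.17 (adjusted p = 0.000712). Dcn and Vim, which mark fibroblasts, changed by 1.85 ± 0.49 and 1.32 ± 0.35 and did not pass. Pdgfra and Foxf1 of the same list were lower on every cKO array, at −0.55 ± 0.18 and −0.34 ± 0.11, and did not pass. Of 9 smooth muscle markers 1 was higher, the actin gene Actg2 (1.85 ± 0.46, adjusted p = 0.0475). That call was kept in 1 of 6 fits with 1 array left out (adjusted p up to 0.145), and without both control 3 and cKO 2 the change was 1.78 (adjusted p = 0.197). The log2 of the summed level of the smooth muscle markers was 12.22, 11.80 and 11.05 on the cKO arrays, against 10.92, 10.85 and 10.88 on the control arrays. A sum weighs the brightest genes most. The median change of the 9 genes was 0.49, while Synpo2 was lower on every cKO array (−0.49 ± 0.16) and did not pass. No mesenchyme or muscle marker was listed at 0 on any array, and their part in the Hox values was not tested.

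**Figure D4:**
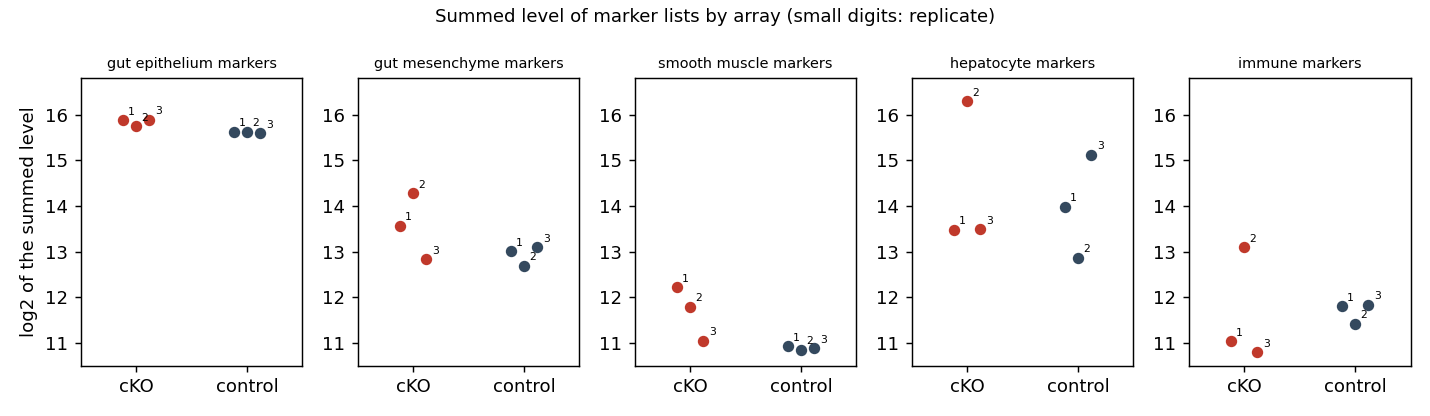
Log2 of the summed level of 5 marker lists on each array, arrays labelled cKO on the left and control on the right, with small digits for the replicate. The epithelial and the smooth muscle sums are both higher on every cKO array than on any control array. The epithelial sums span only 15.6 to 15.9. The hepatocyte and immune sums are highest on cKO 2.

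The other cell type lists were counted in the same way, beside 5.52% of all genes higher and 7.42% lower. Of 12 epithelial markers 3 were higher and 0 lower, of 6 mesothelial markers 3 were higher and 1 lower, and of 8 enteric nerve and glia markers 1 was lower. In the immune list 1 of 9 was lower, and in the endothelial (8), erythroid (6) and hepatocyte (9) lists limma called 0 genes, with an unadjusted p under 0.05 for 0, 0 and 1 gene.

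Promoter windows from RefSeq on GRCm38.p6 (250 bases before to 50 after the annotated start) matched 21 of the 37 Hox genes in 23 windows. They were searched on both strands for the GATA factor words AGATAA or AGATAG or TGATAA or TGATAG, and for the HOX-PBX word TGATNNAT, which can overlap the first set. A GATA word was found in 6 of the 23 windows (26.1%), beside 29.8% of all 32851 windows, and the HOX-PBX word in 3 (13.04%), beside 8.85% of all windows. The windows of the 2 matched genes with the highest changes are printed, with a found word in capitals: that of Hoxa3 holds no word, and that of Hoxa9 holds TGATAG starting 17 bases before the annotated start.
Hoxa3 (chr6:52213018-52213317, minus strand): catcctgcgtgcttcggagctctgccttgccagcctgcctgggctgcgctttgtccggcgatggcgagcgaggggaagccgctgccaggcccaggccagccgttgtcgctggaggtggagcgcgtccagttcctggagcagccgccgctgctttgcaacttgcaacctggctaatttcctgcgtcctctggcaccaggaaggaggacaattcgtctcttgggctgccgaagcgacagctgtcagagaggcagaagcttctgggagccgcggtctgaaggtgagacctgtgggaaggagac
Hoxa9 (chr6:52227321-52227620, minus strand): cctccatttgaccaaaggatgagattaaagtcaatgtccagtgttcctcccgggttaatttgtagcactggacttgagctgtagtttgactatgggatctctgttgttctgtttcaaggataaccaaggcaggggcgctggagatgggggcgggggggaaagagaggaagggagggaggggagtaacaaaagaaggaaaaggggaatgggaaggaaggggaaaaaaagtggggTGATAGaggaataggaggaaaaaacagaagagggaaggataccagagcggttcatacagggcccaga
The Hoxa3 window lies before the windows of Hoxa6 and Hoxa5 on the same strand, at the start of the long span that covers these genes. It does not describe any start nearer to the other end of that span. The word matches are a description of letters, and no binding was measured in these samples.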

How the data were processed

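Each of 6 Affymetrix Mouse Gene 1.0 arrays gave 1 deposited log2 level per probe set (35512 probe sets). The authors made these values with dChip, per the labels' series text. Its version, background correction, normalization and model, and the genome build, are not stated there. The log2 scale was read from the values (0 to 14.25), since no label states the base, and centring is unknown. Medians over probe sets were 7.73 to 7.84. Of the probe sets 21789 have 1 annotated gene, 1621 several and 12102 none; for the 999 genes with several, the one with the highest mean was kept, which left 19938 genes. All 37 Hox genes matched RefSeq (GRCm38.p6) by gene ID.

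Groups came from the source names. The comparison used two-sided moderated tests from limma 3.58.1 under R 4.3.3 (lmFit, then eBayes), without covariates, filter or further normalization, with Benjamini-Hochberg adjustment over all genes at 0.05. The fit was tested on simulated data. No 2 arrays held the same values. The Hox genes, the 19 other lists and the tests were chosen with earlier results of these data known. All Hox genes are named, with array values for those past the threshold and the next 6; from each other list at most 4 genes with the smallest adjusted p are named, plus Gata4, Gata6, Cdx1, Cdx2 and Pdx1. Evx1, Evx2, Mir196a-1, Mir196b, Mir10a, Mir10b, Mir615, Alb, Foxf1, Pdgfra and Synpo2 were named after their values were seen. The number of arrays limits the precision. Alternatives were other scalings, filters, variance models, weights, a replicate block, probe set averages and arrays left out.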

Additional observations from a re-analysis of the deposited data

How the results depend on the processing

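Over 16 alternatives, 21 of the 37 Hox genes kept their direction and their side of the threshold, and 26 kept their direction, in each fit that tested them. Hoxd13, at 0.00, had no direction to keep and ran from −0.11 to 0.13 with 1 array left out. With 1 array left out in turn, the higher Hox count ran from 0 to 2, the lower count from 0 to 1 and the count of all genes called from 1482 (without control 2) to 2281 (without cKO 2), with 1514 without control 3 and 1587 without cKO 3. Without cKO 1 the 1 lower gene was Hoxb13, and without cKO 2 the 2 higher genes were Hoxa3 and Hoxa9. Without both control 3 and cKO 2 the counts were 0 higher and 0 lower, and 1586 of all genes. Without the lowest tertile of genes both counts were 0, since Hoxa3 and Hoxc13 are in it; without the genes below the median level, 2 Hox genes were left, with 1 higher (Hoxa4, adjusted p = 0.0416), 0 lower and a median of 0.215. Array weights gave 2 lower (Hoxb13 added, adjusted p = 0.036). The replicate number as a block gave 0 higher, 0 lower and 1449 of all genes. In that limma fit the adjusted p was 0.0756 for Hoxa3 and 0.0552 for Hoxc13. Same-numbered arrays deviated together at r = −0.02, −0.42 and −0.18, none over 0.1. With 3 arrays a group, these correlations cannot tell whether the arrays were paired. In limma's fits with 0 Hox calls, the Hox genes with an unadjusted p under 0.05 numbered 6 under the block, 6 without both arrays, 5 without control 3, 6 without cKO 3 and 1 without the lowest tertile.

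The direction reversed in some fits for 10 genes, none of which passed in any fit. Hoxc6 was at 0.0267 after quantile normalization and 0.000298 with 32 added. With array weights Hoxc4 was at −0.11 and Hoxc8 at −0.0424. Without both control 3 and cKO 2, Hoxa5 was at 0.05, Hoxb6 at 0.01, Hoxc4 at −0.025, Hoxc6 at 0.06, Hoxd1 at 0.095, Hoxd10 at 0.05 and Hoxd12 at −0.03. With 1 array left out, the ranges were −0.0917 to 0.0383 for Hoxa5, −0.12 to 0.0467 for Hoxb6, −0.185 to 0.03 for Hoxb7, −0.10 to 0.18 for Hoxc4, −0.13 to 0.0333 for Hoxc5, −0.15 to 0.0817 for Hoxc6, −0.11 to 0.19 for Hoxc8, −0.15 to 0.05 for Hoxd1 and −0.0367 to 0.13 for Hoxd12. The causes were not tested.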
